A study of Mus musculus with 50 samples.

Results

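The cholesterol synthesis enzymes described here are 8 mouse genes, Hmgcs1, Idi1, Fdps, Fdft1, Sqle, Lss, Cyp51 and Dhcr7. They were chosen by name, with earlier results of these data known. The gene identifiers of the deposited counts were matched to their symbols through the GENCODE vM21 annotation. All 8 were found and all 8 passed the filter on low counts, out of 16330 protein-coding genes tested and 55487 genes in the count files. Their levels are given across 5 ages and 2 genotypes of mouse frontal cortex.

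Cells make cholesterol from acetyl-CoA through a chain of enzymes that first builds mevalonate, then isoprenoid units, then squalene, and at last the sterol rings. Because lipoproteins in the blood do not cross into the brain, almost all brain cholesterol is made there, by neurons early in life, by oligodendrocytes as they form myelin, and by astrocytes. The genes of the pathway are switched on together by the transcription factor SREBP2 (gene Srebf2), which is held back when sterols are plentiful.

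RNA was taken from frontal cortex of mice labelled C57BL/6NTac at embryonic days E14 and E18 and postnatal days P7, P35 and P70. At each age 5 libraries were labelled wild-type (WT) and 5 heterozygous for Setd1a (Setd1a+/-), which makes 10 groups and 50 libraries of poly-A RNA. Setd1a encodes a histone H3 methyltransferase, and the study asked what the loss of 1 of its copies changes in the cortex as it develops. By the study's methods the replicates were separate male animals, and those at the postnatal ages were littermates. The labels do not identify the litters. Those methods describe the lost copy as a tm1d loss-of-function allele of a knockout-first design, on a mixed C57BL/6NTac and C57BL/6J background. The mice came from heterozygous fathers and wild-type mothers. An allele inherited in this way would be in all tissues, not in the cortex alone, which limits the groups as a model. The tissue at the embryonic ages was a frontal brain region and at the postnatal ages the dissected frontal cortex, so age and dissection cannot be told apart between E18 and P7. The labels name a single sequencing batch and give no dates of extraction.

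The files held raw fragment counts for each gene, with 35507165 to 43907318 counts per library (median 38621490 in WT and 38680536 in Setd1a+/-). The smallest count of any of the 8 enzymes in any library was 584, for Idi1 in a P35 WT library, so depth did not set a floor for any of them. Levels are in CPM (counts scaled to a common library size, with TMM factors), which compares a gene between libraries. Others are in CPM per kilobase of annotated exon (RPKM), which also allows for the annotated length of a gene. Errors beside means are standard deviations over the 5 libraries of a group.

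Several libraries stood apart or went against their labels. E14 WT replicate 5 had 60159 counts of Xist and 0 from the Y-linked genes, and E18 WT replicate 2 had 55644 of Xist and 11 from the Y-linked genes, whereas each of the other libraries had at most 27 of Xist and at least 4711 from the Y. Both go against the male sex that the study gives for its animals. P7 WT replicate 2 differed from its group across the genome: the standard deviation of its log2 deviations over all tested genes was 0.55, against 0.217 to 0.272 in the other P7 libraries. Its 10 myelin genes summed to 1554 CPM, where the other P7 WT libraries had 220, 259.9, 263.3 and 276.5 and those of P7 Setd1a+/- 216.6 to 242.9. It had 49.31 CPM of the cortex gene Tbr1 and 65.86 of Neurod6, the lowest of its group, where the other libraries had 124.7 to 141.3 and 153.1 to 186.9, and its 5 genes of meninges and choroid plexus summed to 731.6 CPM. Below, each call of an enzyme that changed without these libraries is given both ways.

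Cortex markers were present at every age: Emx1 had 67.2 ± 12.7 CPM in E14 WT and 22.5 ± 3.14 in P70 WT, Tbr1 366.1 ± 42.46 and 159.3 ± 14.66, and Neurod6 356 ± 57.1 and 71.9 ± 12.3. Genes of the striatum, a neighbouring region, were also present, with 62.9 ± 11.1 CPM summed over 4 genes in E14 WT and 513 ± 197 in P70 WT, most of it Ppp1r1b. The genotype labels could not be checked by the level of Setd1a itself. Setd1a (ENSMUSG00000042308, chr7:127776670-127800122, plus strand) had a mean of 72.2 CPM in P7 WT and 80.8 in the libraries labelled P7 Setd1a+/-, and 86.3 and 84.8 at P70, and with age as a covariate it was higher in Setd1a+/- by 0.10 log2 units (95% CI 0.05 to 0.15, adjusted p 0.0068). Of its exon bases 52.3% also lie in other annotated genes whose fragments were counted for both.

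Hmgcs1 (ENSMUSG00000093930, chr13:119690379-119708260 of GRCm38, plus strand) encodes the cytosolic synthase that joins acetyl-CoA to acetoacetyl-CoA, early in the branch that leads to mevalonate. Per kilobase of exon it had the highest level of the 8 enzymes in every group. The 5 E14 WT libraries had 360, 398, 339, 373 and 335.6 CPM of Hmgcs1, and the 5 of E18 WT 636.6, 750.6, 708.4, 728.9 and 687.8. At P7 the WT libraries had 858.8, 615, 997.6, 896 and 929.5 CPM, at P35 327.3, 277.6, 320.3, 306.9 and 371.8, and at P70 264.5, 271.2, 267.5, 279.1 and 286.9. Every E18 library was above every E14 library and every P7 library above every P35 library, and the lowest P7 value was that of replicate 2, the library that stood apart. The Setd1a+/- libraries had the same order of ages, from 336.3, 325, 371.4, 337.9 and 345.1 CPM at E14 through 946.2, 909.6, 974.4, 905.2 and 865.5 at P7 to 290.9, 240.4, 252.7, 275.4 and 285.2 at P70. Between E14 and E18 Hmgcs1 rose by 0.96 log2 units in WT, a 1.95-fold change (standard error 0.079, adjusted p 6.29e-14), and by 1.11 in Setd1a+/- (adjusted p 5.68e-16). It rose again to P7, by 0.29 in WT (adjusted p 0.00115) and 0.31 in Setd1a+/- (adjusted p 5.33e-04), and then fell by 1.42 to P35 in WT (2.68-fold, adjusted p 3.81e-20) and by 1.43 in Setd1a+/- (adjusted p 3.13e-20). Without P7 WT replicate 2 the fall in WT was 1.52. In tissue made of many cell types, fewer cells that express a gene and less of its RNA in each cell cannot be told apart.

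The promoter of Hmgcs1 is printed because all 8 enzymes rose from E14 to E18 and fell from P7 to P35, and of the 5 members with a promoter at hand it is the one whose window held the sterol response element searched for. It is the stretch chr13:119690101-119690400 of GRCm38.p6 on the plus strand, from 250 bases before to 50 after the RefSeq start, in lower case with capitals marking the match to that element, TCACNCCAC.
Hmgcs1 promoter: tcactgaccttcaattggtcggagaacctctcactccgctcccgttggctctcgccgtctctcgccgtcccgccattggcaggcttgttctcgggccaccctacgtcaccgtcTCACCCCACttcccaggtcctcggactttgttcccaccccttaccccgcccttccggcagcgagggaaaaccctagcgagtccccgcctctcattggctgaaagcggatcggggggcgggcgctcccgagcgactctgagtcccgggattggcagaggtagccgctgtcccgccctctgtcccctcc

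The match lies at bases 114 to 122 of this window. RefSeq promoters of the same 300 bases were at hand for 5 of the 8 enzymes, Hmgcs1, Idi1, Cyp51, Lss and Dhcr7, the last with 3 start sites, and not for Fdps, Fdft1 and Sqle. On both strands, TCACNCCAC occurred in 1.24% of all 32851 promoter windows of the table, the NF-Y motif CCAAT in 37.4% and the Sp1 motif GGGCGG in 35.7%, and no matches of different motifs overlapped in the members' windows. The Hmgcs1 window held 4 matches of CCAAT and 3 of GGGCGG. Idi1 had 2 and 1 of these, Cyp51 1 of each, and Lss 1 and 2. The 3 Dhcr7 windows, in order along the chromosome, had 0 and 1, 0 and 0, and 2 and 3. A match is a run of letters, not a measured binding site.

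Idi1 and Fdps make the isoprenoid units. Idi1 (ENSMUSG00000058258, chr13:8885501-8892451, plus strand) interconverts the pair of isoprenoid building blocks, and Fdps (ENSMUSG00000059743, chr3:89093588-89101959, minus strand) joins them into farnesyl diphosphate, where the sterol branch and protein prenylation part. The mean level of Idi1 was 24.3 ± 3.53 CPM in E14 WT, 33.2 ± 2.23 in E18 WT, 34.1 ± 1.94 in P7 WT, 18.4 ± 1.46 in P35 WT and 17.3 ± 0.485 in P70 WT. Its P7 WT libraries lay at or above 32.57 CPM and those of P35 WT at or below 19.83, so these groups did not overlap. Idi1 rose by 0.45 between E14 and E18 in WT (adjusted p 6.77e-06) and 0.42 in Setd1a+/- (adjusted p 1.60e-05), and fell by 0.89 between P7 and P35 in WT (1.85-fold, adjusted p 5.91e-13) and 0.74 in Setd1a+/- (1.67-fold, adjusted p 9.93e-11). From E18 to P7 and from P35 to P70 it passed no test in either genotype. Fdps had a steeper course, with 98.37, 104.4, 88.33, 99.98 and 93.05 CPM in the E14 WT libraries and 147, 165.5, 157.4, 168.9 and 157.8 in those of E18 WT. Its P7 WT libraries had 150.5, 113.8, 166.2, 148.8 and 154.9 CPM, and those of P35 WT 58.92, 53.28, 58.09, 51.49 and 58. All of the E18 and P7 values lay above all of the E14 and P35 values, and replicate 2 was again the lowest of P7 WT. Fdps rose by 0.72 between E14 and E18 in WT (1.65-fold, adjusted p 4.33e-12) and by 0.87 in Setd1a+/- (1.83-fold, adjusted p 1.43e-14). Its fall from P7 to P35 was 1.39 in WT (2.62-fold, adjusted p 1.05e-21), 1.47 without P7 WT replicate 2, and 1.42 in Setd1a+/- (adjusted p 4.48e-22).

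Fdft1 and Sqle commit farnesyl diphosphate to sterols. Fdft1 (ENSMUSG00000021273, chr14:63145150-63179578, minus strand) is squalene synthase, and Sqle (ENSMUSG00000022351, chr15:59315077-59331192, plus strand) adds the oxygen to squalene and is a known point of control of the chain. The mean of Fdft1 was highest at E18, with 161 ± 10.3 CPM in WT, beside 125 ± 9.06 at E14, 139 ± 16.4 at P7, 85.6 ± 4.19 at P35 and 89.7 ± 4.27 at P70. It rose by 0.36 from E14 to E18 in WT (adjusted p 4.47e-06) and fell by 0.70 from P7 to P35 (1.62-fold, adjusted p 3.38e-13; 0.67 and 1.59-fold in Setd1a+/-, where it also passed), which was the smallest P7 to P35 fall of the 8 in WT. Between E18 and P7 Fdft1 fell by 0.21 in WT (adjusted p 0.004) and 0.22 in Setd1a+/- (adjusted p 0.00209). The WT value rests in part on the libraries that stood apart: it was -0.14 without P7 WT replicate 2 (adjusted p 0.0347) and -0.11 without all 3 of those libraries (adjusted p 0.0982), which ends the call.

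Sqle passed no test between E18 and P7 and fell in both later steps. The P7 WT libraries had 194.9, 178.5, 219.5, 201.7 and 198 CPM of Sqle, those of P35 WT 83.12, 72.47, 81.38, 78.2 and 82.7, and those of P70 WT 67.46, 64.74, 60.04, 66.59 and 67.19. In Setd1a+/- the P7 libraries had 208, 217.4, 223.2, 199.9 and 190.2 CPM, those of P35 106.4, 88.97, 84.74, 78.88 and 81.89, and those of P70 64.02, 60.71, 62.4, 69.94 and 68.78. The 3 ages did not overlap in either genotype (every P35 library lay above every P70 library for 2.38% of all tested genes in WT and 3.95% in Setd1a+/-), and the P35 Setd1a+/- value of replicate 1 was the highest of its group. Sqle rose by 0.49 from E14 to E18 in WT (adjusted p 7.95e-09) and 0.60 in Setd1a+/- (1.52-fold, adjusted p 4.40e-11), and fell by 1.32 from P7 to P35 in WT (2.49-fold, adjusted p 4.08e-22) and 1.24 in Setd1a+/- (adjusted p 3.37e-21). From P35 to P70 it fell by 0.29 in WT (standard error 0.065, adjusted p 0.0175) and 0.44 in Setd1a+/- (adjusted p 6.24e-05). The WT call was lost without P35 WT replicate 1 (adjusted p 0.0634), 3 (0.0501) or 5 (0.0738) and without P70 WT replicate 2 (0.0562) or 3 (0.0837). The size of the fall changed little in these fits, which gave 0.258 to 0.283.

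Lss, Cyp51 and Dhcr7 work on the sterol rings. Lss (ENSMUSG00000033105, chr10:76531588-76557138, plus strand) closes the rings to give lanosterol, Cyp51 (ENSMUSG00000001467, chr5:4081145-4104746, minus strand) starts the removal of its extra methyl groups, and Dhcr7 (ENSMUSG00000058454, chr7:143823145-143848410, plus strand) makes the last reduction to cholesterol. For Lss the 5 E18 WT libraries spanned 97.54 to 117.2 CPM and those of E14 WT 81.42 to 103, so these groups overlapped, the only such overlap of the E14 and E18 groups among the 8 enzymes and both genotypes (every E18 library lay above every E14 library for 18.1% of all tested genes in WT and 22.2% in Setd1a+/-). Lss rose by 0.29 there (adjusted p 0.00143), and by 0.54 in Setd1a+/- (adjusted p 9.19e-08). From E14 to E18 Cyp51 rose by 0.49 (adjusted p 1.13e-08) and Dhcr7 by 0.38 (adjusted p 1.79e-07) in WT. The mean of Cyp51 was highest at E18, with 186 ± 12.2 CPM in WT, and fell by 0.27 to P7 in WT (adjusted p 3.28e-04) and 0.25 in Setd1a+/- (adjusted p 6.01e-04). Dhcr7 went the other way in that step, from 68.0 ± 5.39 to 81.1 ± 5.01 CPM in WT, a rise of 0.25 (adjusted p 1.39e-04), with 0.23 in Setd1a+/- (adjusted p 6.08e-04). From P7 to P35 all 3 fell in WT: Lss by 0.95 (1.93-fold, adjusted p 3.01e-14), Cyp51 by 1.03 (2.04-fold, adjusted p 2.74e-18) and Dhcr7 by 1.06 (2.08-fold, adjusted p 1.79e-20). In Setd1a+/- they fell by 0.99 (adjusted p 9.49e-15), 0.93 (adjusted p 7.97e-17) and 0.95 (adjusted p 5.61e-19). The P7 and P35 groups did not overlap for any of them, with Lss at or above 83.64 CPM in P7 WT and at or below 56.82 in P35 WT, Cyp51 at 144.5 and 84.72, and Dhcr7 at 75.87 and 41.44.

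On the scale per kilobase, Hmgcs1 stood well above the other enzymes. The scale divides by all annotated exon bases of a gene, whichever transcripts were present, so ranks between genes depend on that length. It was 10787 bases for Lss, 5817 for Dhcr7 and 3505 for Idi1. In P7 WT, Lss had 99.03 CPM, Dhcr7 81.1 and Idi1 34.12, another order than per kilobase. In P7 WT the level of Hmgcs1 was 187 ± 31.7 RPKM. Sqle (35.8 ± 2.65), Cyp51 (34.97 ± 2.32), Fdps (34.9 ± 4.68) and Fdft1 (33.8 ± 3.99 RPKM) followed and did not differ from each other beyond their spread. Dhcr7 had 13.9 ± 0.859 RPKM, and Idi1 (9.74 ± 0.555) and Lss (9.18 ± 0.894) came last with overlapping values. In P70 WT the order was Hmgcs1 (59.6 ± 1.99), Fdft1 (21.8 ± 1.04), Cyp51 (15.6 ± 1.17), Fdps (12.1 ± 0.640), Sqle (11.8 ± 0.553), Dhcr7 (6.30 ± 0.636), Idi1 (4.95 ± 0.138) and Lss (3.88 ± 0.425 RPKM), in which only Fdps and Sqle lay within each other's spread. Fdft1, whose fall after P7 was the smallest, stood second there. These levels include fragments that also lie in another annotated gene, which covers 26.7% of the exon bases of Fdps, 18.8% of Fdft1, 12.1% of Hmgcs1, 9.2% of Idi1, 3.8% of Cyp51, 3.5% of Lss, and 0% of Sqle and Dhcr7.

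Counted over the steps, the 8 enzymes moved as a block in 2 of them. Since they were chosen with earlier results of these data known, their counts beside the shares of all genes are a description, not a test. Between E14 and E18, 8 of 8 rose in WT, where 31.8% of all tested genes rose, and 8 of 8 in Setd1a+/-, against 32.0%. Without the 2 libraries with Xist counts 8 of 8 rose in WT as well. None of the 8 fell, where 34.1% of all genes fell in WT and 32.5% in Setd1a+/-. Their median change was 0.47 in WT and 0.55 in Setd1a+/-, beside -0.01 over all tested genes in each genotype. Between E18 and P7 the enzymes divided: in WT, 2 of 8 rose (33.9% of all genes) and 2 of 8 fell (33.4%), and in Setd1a+/- 2 rose (32.7%) and 3 fell (35%), shares near or under those of all genes. Hmgcs1 and Dhcr7 were the enzymes that rose in both genotypes and Fdft1 and Cyp51 those that fell in both, while Lss fell in Setd1a+/- (by 0.22, adjusted p 0.0125) and missed the threshold in WT (-0.16, adjusted p 0.0663). Under scaling by library size alone, Fdps (-0.18, adjusted p 0.00969) and Lss (-0.22, adjusted p 0.00929) also passed in WT. Leaving out P7 WT replicate 3 had the same effect on Fdps (adjusted p 0.0311) and Lss (0.0336), and Lss also passed without E18 WT replicate 4 (0.0213) or P7 WT replicate 5 (0.0407).

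Between P7 and P35, 8 of 8 fell in WT, where 34.3% of all genes fell, and 8 of 8 in Setd1a+/-, against 33.3%. All 8 fell by at least 1.5-fold in WT (17.5% of all genes) and all 8 in Setd1a+/- (16.7%). The median change was -1.04 in WT and -0.97 in Setd1a+/-, beside -0.02 and 0.01 over all genes, and for each enzyme in each genotype the lowest P7 library lay above the highest P35 library, as it did for 27.4% of all tested genes in WT and 31.0% in Setd1a+/-. Summed over the 8 enzymes, the mean level went from 1712 ± 218 to 726 ± 52.5 CPM in WT and from 1810 ± 71.8 to 779 ± 70.1 in Setd1a+/-.

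From P35 to P70 the changes were smaller and their calls depended more on single libraries. In WT 1 of 8 fell, Sqle, where 0.527% of all genes fell, and in Setd1a+/- 5 of 8 fell, against 1.47%: Hmgcs1 (by 0.35, adjusted p 0.00809), Sqle, Cyp51 (by 0.22, adjusted p 0.0495), Lss (by 0.45, adjusted p 0.00111) and Dhcr7 (by 0.25, adjusted p 0.0104). The medians were -0.14 in WT and -0.23 in Setd1a+/-, beside 0.00 over all genes. This does not show that the genotypes differ in the step, since the test of the age by genotype interaction gave adjusted p values from 0.756 to 0.992 for the 8 enzymes. In WT, Lss was at -0.29 (adjusted p 0.0603) and passed under DESeq2 (0.03), under scaling by library size (0.0298), with at least 10 CPM in 5 libraries (0.0362), with the replicate number as a block (0.0488), without the 3 libraries that stood apart (0.0327), without P35 WT replicate 2 (0.0381) and without P70 WT replicate 5 (0.0148), and Hmgcs1 at -0.23 (adjusted p 0.179) passed without the same 3 (0.0412). Scaling by library size alone changed the balance of all genes in this step in WT from 87 higher and 86 lower to 69 and 129. In Setd1a+/-, the call of Cyp51 was lost under limma-voom (adjusted p 0.0503), DESeq2 size factors (0.0524), no filter (0.065) and the replicate block (0.0505). It was also lost without any 1 of P35 replicates 1 (-0.15, adjusted p 0.24), 2 (0.108), 3 (0.0771) and 4 (0.0752). The same held without any 1 of P70 replicates 1 (0.0702), 2 (0.163), 3 (0.123) and 5 (0.0777). Dhcr7 lost its call without P70 replicate 1 (0.0532), where it was at -0.222. Apart from the fit without P35 replicate 1, Cyp51 stayed between -0.185 and -0.238 in the fits that lost its call.

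**Figure D1:**
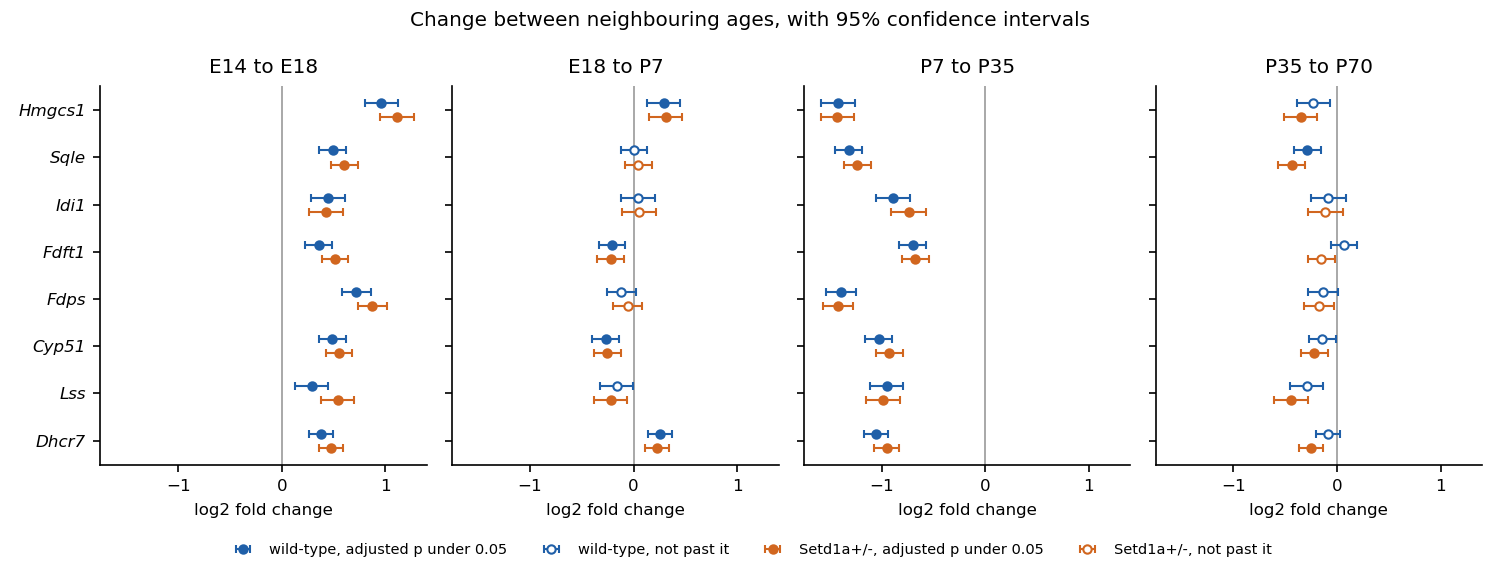
Change of each enzyme between neighbouring ages (log2 fold change with 95% confidence interval, 1 panel per step) in WT (blue) and Setd1a+/- (orange), filled where the adjusted p was under 0.05 and open where it was not. All 16 symbols are filled above 0 from E14 to E18 and below 0 from P7 to P35, and the other steps are mixed.

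The comparison of genotypes asks whether the loss of 1 copy of Setd1a goes with a change in these enzymes. The levels of the 2 genotypes overlapped for all 8 enzymes at all 5 ages, and of all tested genes 0.784%, 2.22%, 2.23%, 2.25% and 1.79% did not overlap, in order of age from the youngest, so overlap is what most genes showed. With age as a covariate edgeR called 0 of 8, where 4.43% of all tested genes (111 higher and 612 lower in Setd1a+/-) passed. Before adjustment 0 of 8 had a p under 0.05 (14.5% of all genes), and DESeq2 and limma-voom each called 0. The estimates were small and above 0, from 0.00 for Fdft1 (95% CI -0.06 to 0.07, adjusted p 0.978) to 0.05 for Idi1 (95% CI -0.02 to 0.12, adjusted p 0.587). Their median was 0.03, beside 0.00 over all genes. Hmgcs1 was at 0.03 (95% CI -0.04 to 0.11, adjusted p 0.758) and Sqle at 0.03 (95% CI -0.03 to 0.09, adjusted p 0.749).

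Age by age, edgeR called 0 of 8 enzymes in each of the 5 comparisons, where 0.129% of all genes passed in E14 cortex, 0.110% in E18, 0.735% in P7, 0% in P35 and 0.233% in P70 cortex, and DESeq2 and limma-voom called 0 of 8 at each of them. Before adjustment 0, 0, 0, 1 and 1 of the 8 had a p under 0.05, beside 11.6%, 11.4%, 8.86%, 3.37% and 6.55% of all genes. In the same order of ages the median of the 8 was -0.08, 0.05, 0.06, 0.10 and -0.01, beside -0.03, 0.02, 0.00, 0.01 and 0.00 over all genes, and 1, 7, 7, 8 and 3 of the 8 lay above 0. The enzyme past the unadjusted threshold at P35 was Sqle, with 79.6 ± 4.42 CPM in WT and 88.2 ± 10.9 in Setd1a+/-, a difference of 0.15 (95% CI 0.02 to 0.28, adjusted p 1). Without P35 Setd1a+/- replicate 1 it was 0.07, and the P35 differences of Fdft1 and Fdps went from 0.09 to 0.05 and 0.04. At P70 it was Fdft1, with 90.92, 91.11, 90.02, 94.01 and 82.57 CPM in WT and 81.94, 75.96, 79.99, 85.44 and 86.66 in Setd1a+/-, a difference of -0.13 (95% CI -0.258 to -0.001, adjusted p 0.754). Of its WT values, 4 lay above all 5 of Setd1a+/-, and replicate 5 lay among them. Idi1 at P35 had the interval that reached highest, 0.15 with a 95% CI of -0.02 to 0.32, and Lss at E14 the one that reached lowest, -0.10 with -0.26 to 0.06, so the data leave room for differences up to about that size at single ages. With RNA integrity as a covariate the E18 estimate of Dhcr7 turned from 0.04 to -0.02. Over all genes, edgeR called 0 at P35, with 550 at an unadjusted p under 0.05, 11 under DESeq2 and 0 under limma-voom.

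Without the 2 libraries with Xist counts 0 of 8 were called in E14 or E18 cortex, while the genes called in all went from 21 to 795 and from 18 to 77. Markers of other cell types were among those called at E14 without these libraries: 3 of 4 endothelial genes (median 0.88) and 3 of 5 genes of meninges and choroid plexus (median 2.25) were higher in Setd1a+/-, with 0 of either called with all libraries, and at E18 1 of the latter 5 was lower. The endothelial sum was 516.3 CPM in E14 Setd1a+/- replicate 2, 102.5 to 193.5 in the other 4 of that group and 101.4 to 142.9 in E14 WT, and the sum of meninges and choroid plexus ran from 61.1 to 570.3 CPM in E14 Setd1a+/- and from 1.38 to 490.4 in E14 WT, so the sums varied widely within E14 Setd1a+/- and the endothelial difference rests mostly on 1 library. The standard deviation of the log2 deviations of that replicate 2 over all genes was 0.483, next to that of P7 WT replicate 2. With E14 Setd1a+/- replicate 2 alone left out, 0 of 8 enzymes and 9 genes in all were called at E14, beside 21 with all libraries. It was not left out together with the libraries with Xist counts. At P7 the genotype estimates rested on P7 WT replicate 2. Without it, Hmgcs1 went from 0.10 to 0.00, Fdps from 0.12 to 0.04 and Fdft1 from 0.06 to -0.002, and the number of all genes called at that age from 120 to 7. The interaction of age and genotype was called by edgeR for 0 of 8 enzymes and for 0% of all genes, with 1098 genes and 0 of the enzymes at an unadjusted p under 0.05, and by DESeq2 for 21 genes and limma-voom for 0, none of them among the 8. The count of all genes was 12 without the 2 libraries with Xist counts, 48 without the 3 libraries that stood apart and 3 with the replicate block, again with 0 of the 8. The lowest interaction p of the 8 was that of Fdft1 (adjusted p 0.756).

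**Figure D2:**
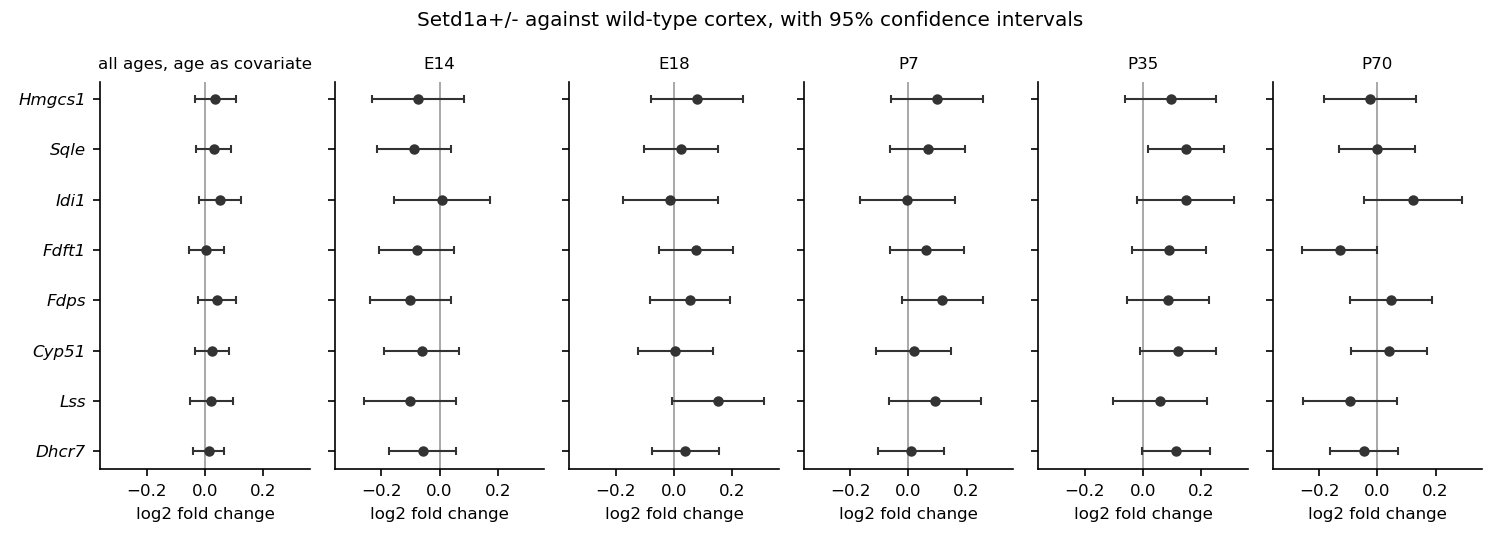
Difference of Setd1a+/- from WT for each enzyme (log2 fold change with 95% confidence interval, edgeR), with age as a covariate in the first panel and at each of the 5 ages in the others. No estimate had an adjusted p under 0.05, and the intervals at single ages lie between -0.261 and 0.315.

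Within groups, the 8 enzymes varied together from library to library. For each library the log2 CPM of an enzyme was taken as a deviation from its group mean, and the 28 pairs of enzymes had a median Pearson r of 0.539 over the 50 libraries, from 0.199 (Idi1 and Lss) to 0.81 (Fdft1 and Fdps). Other tested genes had a median r of 0.038 with the mean of the 8, with a 5th percentile of -0.409 and a 95th of 0.457. For the enzymes, each set against the mean of the others without itself, r ran from 0.451 (Idi1) to 0.833 (Fdft1). Idi1 thus lay under that 95th percentile. The points share library scaling and tissue composition. Over the 10 group means, which share the course of age, the median r of the pairs was 0.97, from 0.849 (Hmgcs1 and Lss) to 0.99 (Idi1 and Fdps). P7 WT replicate 2 had all 8 enzymes below its group mean, by 0.216 log2 units on average, and P35 Setd1a+/- replicate 1 had all 8 above, by 0.189, the largest such means. In 15 of the 50 libraries all 8 lay on 1 side of the group mean, 7 above and 8 below. P35 Setd1a+/- replicate 1 also had the highest total count of all libraries, 43907318. Within its group it had the lowest myelin sum (5267 CPM), the lowest striatal sum (286 CPM) and the highest erythroid sum (585.2 CPM). The part of these in its enzyme levels was not tested.

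**Figure D3:**
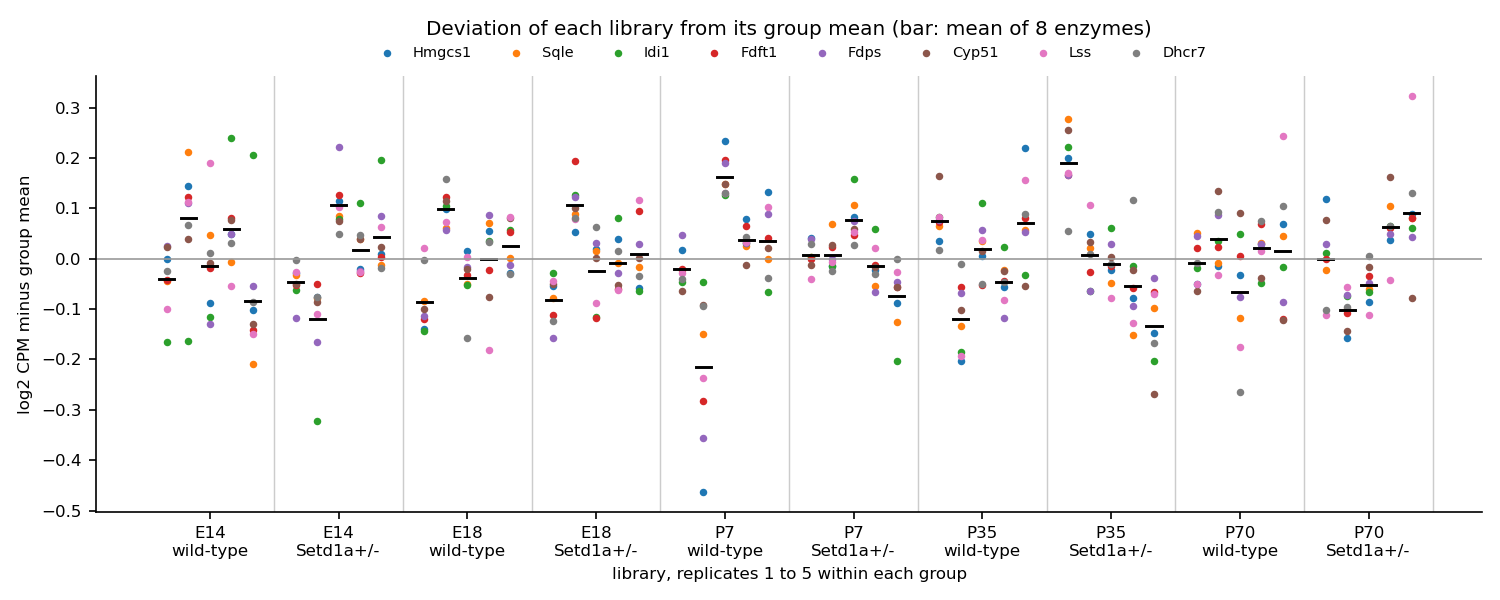
Deviation of each library from its group mean (log2 CPM, vertical axis) for the 8 enzymes (points) and their mean (bar), for replicates 1 to 5 of each of the 10 groups. In P7 WT replicate 2 all points are below 0 and in P35 Setd1a+/- replicate 1 all are above 0.

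The genes most like the 8 enzymes were picked by Pearson r with their mean profile. Over the 10 group means, the 10 highest included Gdap1l1 (r 0.996), Colgalt1 (0.996), Pcyt1b (0.996), Evi5l (0.995), Cfl1 (0.995), Carmil1 (0.994), Gm9936 (0.994) and Krt1 (0.992). Over the 50 deviations, in which age has no part, the 10 highest included Msmo1 (0.797), Tuba1a (0.759), Gpr45 (0.75), Gm49450 (0.739), Acat2 (0.733), Bzw2 (0.732), Armc8 (0.731) and Sc5d (0.726). Of the genes named from the deviations, Msmo1, Acat2 and Sc5d belong to the pathway.

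The other enzymes of the pathway, 13 genes, moved with the 8 in part. From E14 to E18 12 of 13 rose and 1 fell in each genotype, with a median of 0.40 in WT, from Mvd (0.85) down to Lbr (-1.04). From P7 to P35 10 of 13 fell and 1 rose in WT, with a median of -0.79, and 9 fell and 1 rose in Setd1a+/-, with -0.76. Mvd (-1.57) and Acat2 (-1.51 in WT), which make early intermediates, fell most. The gene that rose, Ebp (0.25 in WT, adjusted p 0.0331, named after its value was seen), did not pass with RNA integrity as a covariate (adjusted p 0.0503) or under scaling by library size alone (0.23), where 12 of 13 fell in WT. Msmo1, which works on the sterol after Cyp51, did not share that fall to the same extent: it was at -0.12 in WT (adjusted p 0.134; -0.16 and 0.0428 without P7 WT replicate 2, and -0.20 and 0.00766 under scaling by library size). Hmgcs1, Sqle and Fdps thus fell by 1.42, 1.32 and 1.39 in WT where Msmo1, of the same chain, kept 77.1 ± 6.41 of its 83.5 ± 8.55 CPM. From P35 to P70 0 of 13 passed in WT under edgeR, DESeq2 or limma-voom, with 6 at an unadjusted p under 0.05 (11.3% of all genes), and 5 fell in Setd1a+/-, among them Mvk (by 0.41) and Acat2 (by 0.36). By genotype with age as a covariate 0 of 13 passed under the same tools, with 6 at an unadjusted p under 0.05 (14.5% of all genes) and a median of 0.01. Tm7sf2 came nearest (-0.13, adjusted p 0.0623), a gene named after its value was seen, and it passed under scaling by library size (adjusted p 0.0161), with RNA integrity as a covariate (0.0181), with at least 10 CPM in 5 libraries (0.0486), without the libraries with Xist counts (0.0441), without P7 WT replicate 2 (0.0222) and without all 3 (0.0133). Pmvk (-0.07, adjusted p 0.131), also named after its value was seen, passed under the first 2 of these (0.0379 and 0.0429).

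Genes that sense sterols and control SREBP2, 10 in number, did not move as a block. From P7 to P35 4 rose and 4 fell in WT and 4 rose and 3 fell in Setd1a+/-, with medians of -0.04 (0.05 without P7 WT replicate 2) and 0.02, the largest being Insig2 (0.82) and Nr1h3 (0.78 in WT). In Setd1a+/- 3 rose and 4 fell under scaling by library size (median -0.05) and 3 and 3 with at least 10 CPM in 5 libraries (-0.07). Srebf2 itself stayed within a narrow range while the 8 enzymes fell: 308 ± 23.9 CPM in P7 WT and 280 ± 10.2 in P35 WT, a fall of 0.13 (adjusted p 0.0307). From E14 to E18, when all 8 rose, Srebf2 was at 0.03 in WT (adjusted p 0.685) and 0.12 in Setd1a+/- (adjusted p 0.0554), which passed under scaling by library size (0.0393), with at least 10 CPM in 5 libraries (0.0155) and without the libraries with Xist counts (0.0382) or all 3 (0.0224). Its small fall from E18 to P7 in WT (-0.13, adjusted p 0.0313) was lost under DESeq2 (adjusted p 0.101), its size factors (0.106), at least 10 CPM in 5 libraries (0.0697) and without the libraries with Xist counts (0.0545), P7 WT replicate 2 (0.168) or all 3 (0.239). Insig1, which holds SREBP2 back and is itself a target of it, rose by 0.22 (adjusted p 0.0301) and 0.24 (adjusted p 0.0161) in the first 2 steps in WT and fell by 0.22 from P7 to P35 (adjusted p 0.0325). The second rise did not pass under scaling by library size (adjusted p 0.0729), nor the fall with RNA integrity as a covariate (adjusted p 0.0989). In Setd1a+/- it was at -0.09 from P7 to P35 (adjusted p 0.392) and fell by 0.39 from P35 to P70 (adjusted p 0.0099), where WT was at -0.14 (adjusted p 0.606). These separate calls do not show that the genotypes differ. By genotype, 1 of 10 passed with age as a covariate (4.43% of all genes), Mbtps2, a protease that releases SREBP2, lower in Setd1a+/- by 0.07 (standard error 0.019, adjusted p 0.0199), with 2 at an unadjusted p under 0.05 (14.5% of all genes), so the list is near the shares of all genes. Of the exon bases of Mbtps2 28.4% also lie in Yy2 and were counted for both genes.

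Of the 7 genes for lipoprotein uptake and sterol transfer, 1 rose and 4 fell from P7 to P35 in WT, most of all Lrp8 (-1.15) and Scarb1 (-0.74), and 1 rose and 3 fell in Setd1a+/-, where 34.3% and 33.3% of all tested genes fell. Under scaling by library size 0 rose and 4 fell in each genotype. Of the 10 genes for efflux and turnover, 7 rose and 2 fell from P7 to P35 in each genotype, where 32.6% of all tested genes rose in WT and 34.5% in Setd1a+/-. The largest in WT were Abcg1, a sterol exporter (1.65), and Cyp46a1, the neuronal enzyme that turns cholesterol into a form that leaves the brain (1.59). The 8 genes of the isoprenoid branch, which use the products of Idi1 and Fdps for other ends, divided: 3 rose and 2 fell in that step in each genotype, with medians of -0.05 (0.003 without P7 WT replicate 2) and 0.05 and with Coq2 (0.59) and Pdss1 (-0.38) moving most in WT. These shares are near those of all genes, and under scaling by library size 2 rose and 4 fell in WT and 3 and 3 in Setd1a+/-. Of 8 fatty acid synthesis genes 2 rose and 5 fell in that step in each genotype, with medians of -0.49 and -0.44, Acaca (-1.03) and Fasn (-0.93) the most in WT. By genotype with age as a covariate edgeR called 0 in each of these 4 lists, with 0, 0, 2 and 1 at an unadjusted p under 0.05, and DESeq2 and limma-voom called 0.

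**Figure D4:**
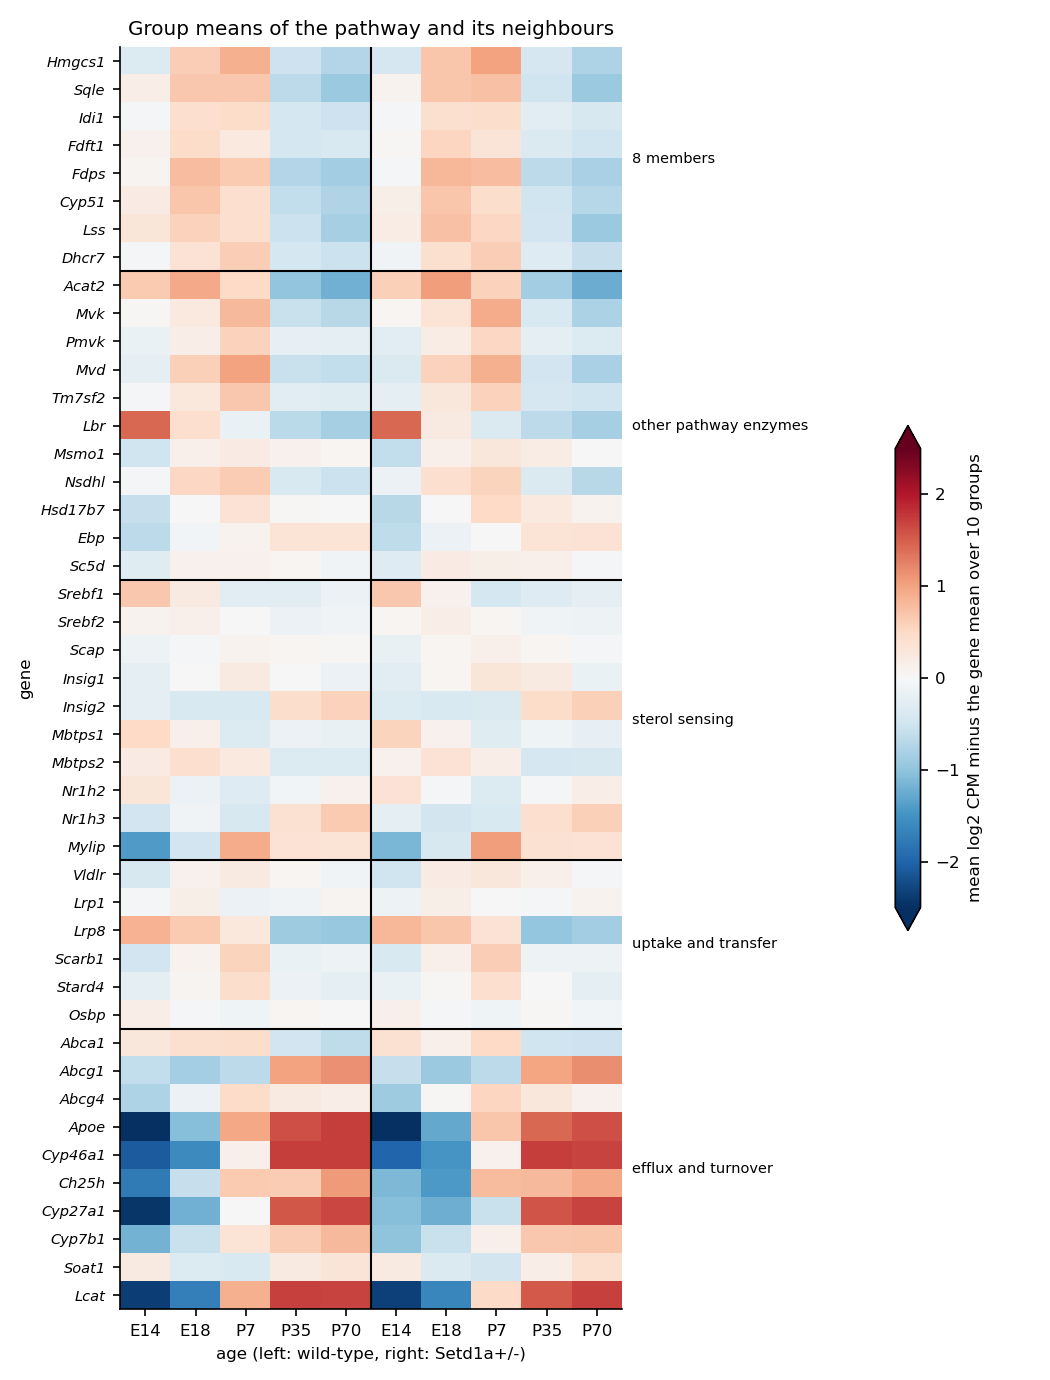
Mean log2 CPM of each group minus the mean of the gene over the 10 groups (colour, scale ending at 2.5 in either direction) for the 8 enzymes, other enzymes of the pathway, and genes of sterol sensing, uptake and transfer, and efflux and turnover, with the 5 ages of WT on the left and of Setd1a+/- on the right. The 8 enzymes are high at E18 and P7 and low at P35 and P70 in both genotypes, and most genes of efflux and turnover are low at E14 and high at P35 and P70.

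Markers of cell types moved in the same steps as the 8 enzymes. From P7 to P35, when all 8 fell, 10 of 10 myelin genes of oligodendrocytes rose in each genotype, with medians of 3.89 in WT (5.46 without P7 WT replicate 2) and 5.63 in Setd1a+/-. Their sum in the 5 P7 WT libraries was 263.3, 1554, 220, 276.5 and 259.9 CPM, the second of these the library that stood apart. At P35 it was 6071, 6770, 5813, 5809 and 6091 CPM in WT and 5267, 6340, 6225, 7294 and 6326 in Setd1a+/-. The most abundant was Mbp, with 2223 CPM in P35 WT, and Opalin was at 0 in E18 WT. At P70 the sum was 4405 ± 342 CPM in WT. Myelin genes and the 8 enzymes thus went in opposite directions between P7 and P35. In the same step, 6 of 6 progenitor genes fell in WT and 5 in Setd1a+/- (sum 188 ± 93.2 to 61.6 ± 5.99 CPM in WT, most abundant Nes and then Hes5), 6 of 7 neuron genes rose and 1 fell in each genotype (3878 ± 580 to 6710 ± 154, most abundant Tubb3 and then Snap25), and 5 of 5 microglia genes rose in each (95.3 ± 4.58 to 220 ± 14.9, Csf1r). Of 7 astrocyte genes 3 rose and 2 fell in WT and 3 rose and 1 fell in Setd1a+/- (sum 1762 ± 217 to 4220 ± 150 CPM, Slc1a2), and of 5 oligodendrocyte precursor genes 1 rose and 3 fell in each genotype (374 ± 15.4 to 304 ± 15.3, Olig1), with 0 and 4 in WT under scaling by library size. Of 4 endothelial genes 1 rose and 2 fell in each, 4 of 4 striatal genes rose in each, 1 of 5 erythroid genes rose in WT and 5 in Setd1a+/-, and 2 of 5 genes of meninges and choroid plexus fell in WT and 1 in Setd1a+/-. Without P7 WT replicate 2, the WT counts were 1 astrocyte gene and 1 gene of meninges and choroid plexus that fell and 0 erythroid genes that rose. The erythroid count in WT was also 0 under scaling by library size and with RNA integrity as a covariate, and 3 without the libraries with Xist counts. Of the cortex markers, Neurod6 fell by 1.23 in WT (adjusted p 2.69e-07; 1.42 without P7 WT replicate 2) and 1.52 in Setd1a+/- (adjusted p 2.63e-09), Tbr1 rose by 0.47 in WT (adjusted p 0.00747; 0.27 and 0.0378 without P7 WT replicate 2) and was at 0.21 in Setd1a+/- (adjusted p 0.241), and Emx1 was at -0.22 (adjusted p 0.163; -0.35 and 0.0166 without P7 WT replicate 2) and -0.17 (adjusted p 0.286). The part of cell composition in the fall of the 8 enzymes was not tested.

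From E14 to E18, when all 8 rose, 6 of 6 progenitor genes fell in each genotype (sum 1396 ± 204.8 to 440 ± 54.8 CPM in WT), 6 of 7 neuron genes rose and 1 fell, and 6 of 7 astrocyte genes rose and 1 fell in WT (6 and 0 without the libraries with Xist counts), with 5 and 0 in Setd1a+/-. In that step 4 of 5 oligodendrocyte precursor genes rose in each genotype (sum 76.5 ± 8.59 to 189 ± 21.4 CPM in WT and 85.3 ± 21.3 to 191.4 ± 16.27 in Setd1a+/-). The sum of the myelin genes was 106 ± 2.34 CPM at E14 and 177 ± 51.4 at E18 in WT, far under its later level. By genotype with age as a covariate edgeR and limma-voom called 0 marker genes, with 3 at an unadjusted p under 0.05, and DESeq2 called Ttr (adjusted p 0.00842). At P7 Mbp (-1.47, adjusted p 0.0177), Mag (-2.14, adjusted p 0.0122), Mobp (-3.63, adjusted p 0.00322) and Ttr (-9.28, adjusted p 0.0435) were lower in Setd1a+/-. Without P7 WT replicate 2 these were -0.15, -0.14, -0.62 and 0.22, each with an adjusted p of 0.966 or more, and none of them passed under limma-voom (adjusted p 0.437 or more) or with the replicate block (0.133 or more).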

How the data were processed

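The authors made the deposited count values, raw fragment counts per gene, with FastQC, Trimmomatic, STAR on GRCm38 and featureCounts 1.4.6-p2 on Ensembl 102 genes, without strand and counting a fragment for every gene it overlaps, as the file headers and submitters' notes give it. Symbols came from GENCODE vM21, and promoters from RefSeq (GRCm38.p6).

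Tests used edgeR 4.0.16 in R 4.3.3: protein-coding genes kept by filterByExpr (minimum count 10, 10 groups), TMM factors, quasi-likelihood F tests, Benjamini-Hochberg over 16330 genes, and a call at an adjusted p under 0.05 (second rule: also a fold of 1.5). Genotype was tested with age as a covariate, by age and as an interaction, and age between neighbouring ages in each genotype. Log2 CPM used a prior count of 2.

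Alternatives were limma-voom (limma 3.58.1), DESeq2 1.42.0, DESeq2 size factors, library size only, at least 10 CPM in 5 libraries, no filter, an adjusted p under 0.01, a replicate block, RNA integrity as a covariate, and leaving out both libraries with Xist counts or each library in turn. Leaving out the 3 libraries that stood apart was added after seeing the data.

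The genes named include the 8 enzymes, the 2 of largest change in each list, Srebf2, Insig1 and Msmo1. Genes among the 10 most alike by each measure are named too. Ebp, Tm7sf2 and Pmvk were named after their values were seen. Other genes named include Setd1a, Mbtps2, the cortex markers Emx1, Tbr1 and Neurod6, and further cell type markers. Some genes are not reported here by name, and counts over a list include them. The members and lists were chosen with earlier results of these data known. Text and figures used Python 3.11.15, numpy 2.4.6, pandas 2.3.3 and matplotlib 3.10.9.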

Additional observations from a re-analysis of the deposited data

Results flagged for a closer look

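In 2 of the 80 groups of 5 libraries tested (8 enzymes in 10 groups), 1 library lay far from the others of its group, by its gap to the nearest of them as a share of the group's range, both in log2 CPM. Chance gives about 1 in 20 such groups, so 2 of 80 is no more than chance would give. Fdft1 was highest in P35 Setd1a+/- replicate 1, at 102.1 CPM, where the group median was 89.2 and the lowest library 86.79, a gap of 0.778 of the range in log2 CPM. That library had all 8 enzymes above its group mean. Lss was highest in P70 Setd1a+/- replicate 5, at 48.67 CPM, where the group median was 37.4 and the lowest library 35.99, a gap of 0.841 of the range in log2 CPM. The highest P70 WT library for Lss, at 49.26 CPM, was also a replicate 5, and these are different animals.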

How the results depend on the processing

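No called change of the 8 enzymes reversed under any alternative. The 8 rises from E14 to E18 and the 8 falls from P7 to P35 were called in both genotypes under all alternatives, leaving out each library included, and 0 of 8 were called by genotype or interaction under any of them. Of the values of single enzymes under the alternatives, 2631 kept their side of the threshold, 23 lost a call, 14 gained one and 4 moved with no call.

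The count of enzymes called from P35 to P70 in WT, 1 in the report, was 0 at an adjusted p under 0.01, 2 under DESeq2, 2 by library size only, 2 with at least 10 CPM in 5 libraries, 2 with the replicate block and 3 without the 3 libraries that stood apart, and ranged from 0 to 2 when each library was left out. In Setd1a+/- the count of 5 was 3 at an adjusted p under 0.01, 4 under limma-voom, DESeq2 size factors, no filter and the replicate block, and ranged from 3 to 5 when each library was left out. The cause was not tested.

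As a check of the block, 25 pairs of libraries with the same replicate number within an age were compared, and their deviations from group means had a median r of 0.064, from -0.204 to 0.46, with 9 over 0.1.

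Over all genes, the count called by genotype with age as a covariate went from 723 to 406 at an adjusted p under 0.01. The counts by single age moved more. At E14 the count of 21 was 3 under scaling by library size and 114 under DESeq2. At E18 the count of 18 was 111 under DESeq2 and 1 with RNA integrity as a covariate. At P7 the count of 120 was 16 under limma-voom and 20 with the replicate block. At P70 the count of 38 was 77 under DESeq2. Leaving out each library gave 1 (without WT replicate 1) to 747 (without WT replicate 5) in E14 cortex, 7 (without Setd1a+/- replicate 2) to 55 (without WT replicate 2) in E18, 7 (without WT replicate 2) to 212 (without WT replicate 3) in P7, 0 to 3 (without Setd1a+/- replicate 5) in P35 and 7 (without Setd1a+/- replicate 4) to 92 (without Setd1a+/- replicate 5) in P70. Counts of all genes from P35 to P70 were 173 in WT, 46 (without P35 replicate 5) to 277 (without P70 replicate 5) with a library left out, and 487 in Setd1a+/-, 190 (without P70 replicate 3) to 1030 (without P70 replicate 5). With 5 animals per group, every 95% interval of an enzyme at a single age was wider than 0.1 log2 units to either side. Smaller estimates could thus not be told from 0 even before adjustment over all genes. Larger estimates in either direction also went without a call under edgeR, such as Lss at E18 (0.151, adjusted p 0.468) and Fdft1 at P70 (-0.13, adjusted p 0.754). Lists of other genes were recomputed under the alternatives but, of single libraries, only without P7 WT replicate 2.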
